A study of Homo sapiens with 6 samples.

Results

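The 35 ribosome biogenesis genes described here were chosen by name as nucleolar, RNA polymerase I and ribosome assembly genes. No filter on their values was used, but earlier results of these data were known when they were chosen. Of these, 34 were matched by gene ID among the 60252 entries of the count table, and BOP1, a pre-60S assembly factor, was not analysed here. A filter on low counts left 30 of the 34 for testing. POLR1E, RRP9, NOP10 and GAR1 did not pass it, with at most 7, 13, 6 and 8 counts in any library.

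RNA was sequenced from RPE-1 cells, a retinal pigment epithelial line of human origin that is immortalised with telomerase, to ask which transcripts depend on the checkpoint kinase ATR in late S phase and G2. Cells were held in 2 mM thymidine for 24 h (arrested, 3 libraries), or washed 3 times and released for 4 h or 6 h. Starting 1 h into the release, DMSO or 2 µM of the ATR inhibitor AZ20 (ATRi) was present for 3 h or 5 h. There were 3 libraries each of asynchronous cycling cells without treatment, of 4h_DMSO, 4h_ATRi and 6h_DMSO, and 2 of 6h_ATRi. All are of 1 cell line, so the libraries are repeats of the experiment (A, B and C) and not of donors or clones.

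Ribosomes are made in the nucleolus, where RNA polymerase I transcribes the long precursor of the ribosomal RNAs. Small nucleolar ribonucleoproteins, or snoRNPs, guide chemical changes in that precursor: the box C/D class directs 2′-O-methylation and the box H/ACA class pseudouridylation. Separate sets of assembly factors then cut, fold and load the precursors of the small and the large subunit, and many of the genes are known targets of the growth regulator MYC, which binds E-box sequences.

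Only the E-box letters CACGTG and the letters CCGGAAG were searched for in the promoters of these genes, and matches to CACGTG are printed here. In the RefSeq promoter windows (GRCh38.p14, 250 bases before to 50 after the annotated start), 27 members had an entry and 11 of these (40.7%) held CACGTG, against 2030 of 27305 gene windows (7.4%) and 840 of the 8551 windows of genes tested (9.8%). The letters CCGGAAG, an ETS factor motif, occurred on either strand in 10 of 27 (37.0%), against 10.7% and 18.5%. CACGTG reads the same on both strands and does not overlap CCGGAAG in its letters. The match begins after the annotated start base in 7 of the 11 (MYBBP1A, FBL, NOP14, NOP2, PES1, WDR43 and PNO1) and before it in RRP9, NOP10, UTP4 and UTP20. Printed are 5 of the members with a difference between conditions described further on, and WDR43 is not among them. The letters are printed 5′ to 3′ on the gene's strand with CACGTG in capitals. It begins 27, 6, 15, 35 and 13 bases after the start base in MYBBP1A (chr17:4555340-4555369, minus strand), FBL (chr19:39846356-39846385, minus), NOP14 (chr4:2963374-2963403, minus), NOP2 (chr12:6568242-6568268, minus) and PES1 (chr22:30591880-30591909, minus), where it falls in the transcribed 5′ end. A match is a description of letters and not a site shown to be bound.
MYBBP1A: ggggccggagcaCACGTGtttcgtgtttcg
FBL: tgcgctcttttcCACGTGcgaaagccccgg
NOP14: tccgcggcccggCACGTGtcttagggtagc
NOP2: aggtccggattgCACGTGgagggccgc
PES1: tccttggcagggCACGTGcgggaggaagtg

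Library totals ran from 1758747 to 2357561 counts. Levels are given as CPM, a gene's counts relative to the size of its library after TMM scaling, edgeR's correction for differences in composition. Experiment B stood apart: NEAT1, a nuclear non-coding RNA, was at 46.3 to 104 CPM in B and 11.7 to 42.7 in A and C, and the mitochondrial ribosomal RNA MT-RNR1 at 224 to 291 against 33.3 to 131. The line markers KRT8, KRT18 and VIM summed to 3770 to 6730 CPM. The 11 pigment epithelium genes listed summed to 10200 to 15800 CPM, and 0 of 11 were at 0 in every library. Among them BEST1, which overlaps FTH1, held 9880 to 15400 CPM. RPE65 was at 0 in 16 libraries and at 0.991 CPM in the other. Markers of other cell types summed to 5.59 to 12.4 CPM, and 5 of 11 were at 0 in every library. Their part in the results was not tested.

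The strand of the counts limits every value. A stranded kit was used, and 13 of the 34 members share exon bases with a feature on the opposite strand. For 8 of these 13 (POLR1C, GNL3, NHP2, NOP14, RRP12, NOB1, PNO1 and WDR74) a feature opposite the member held more counts than the member in 17 of 17 libraries. Counts on such a member may belong to the opposite feature and the reverse, which cannot be told apart here. The 21 members with no such overlap, of which 17 were tested, are therefore also given apart. They are not free of the limit. At 2 abundant genes, chosen after their values were seen, nearly all counts lay on the opposite feature: VIM was at 859 to 1240 CPM and VIM-AS1 at 24900 to 40700, and FTH1 at 88.9 to 179 CPM and BEST1, which overlaps it, at 9880 to 15400. Where counting took mainly the strand opposite to the transcript, the entry of a member without an opposite feature would hold only a small part of its own RNA, and this was not tested for the members.

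The members as a group were at their highest in cycling cells, with arrested cells and inhibitor-treated released cells lowest and close to each other. The mean of log2(CPM + 1) over the 34 members was 4.20 ± 0.06 in cycling cells (SD, n = 3), 3.88 ± 0.13 in arrested cells (n = 3), 4.06 ± 0.10 in 4h_DMSO (n = 3), 3.93 ± 0.10 in 4h_ATRi (n = 3), 4.04 ± 0.03 in 6h_DMSO (n = 3) and 3.88 ± 0.06 in 6h_ATRi (n = 2). The 3 cycling libraries, at 4.15 to 4.27, lay above the 3 arrested libraries, at 3.77 to 4.03. The 6h_DMSO libraries, at 4.02 to 4.08, lay above those of 6h_ATRi, at 3.84 and 3.92. At 4 h the conditions overlapped, with 3.97 to 4.16 in DMSO and 3.84 to 4.04 with the inhibitor, although the inhibitor library was the lower of the pair in each of the 3 experiments. The neighbouring conditions arrested, 6h_ATRi and 4h_ATRi, and likewise 6h_DMSO and 4h_DMSO, differed by less than their spread. Over the 21 members with no opposite exon, cycling cells were again highest, at 3.97 ± 0.04 (SD, n = 3). The lowest 3 conditions came in another order there, with 6h_ATRi at 3.52 ± 0.02 (n = 2), 4h_ATRi at 3.54 ± 0.14 (n = 3) and arrested cells at 3.55 ± 0.25 (n = 3), again within their spread. In bulk RNA, fewer cells of a kind and less RNA per cell cannot be told apart.

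**Figure D1:**
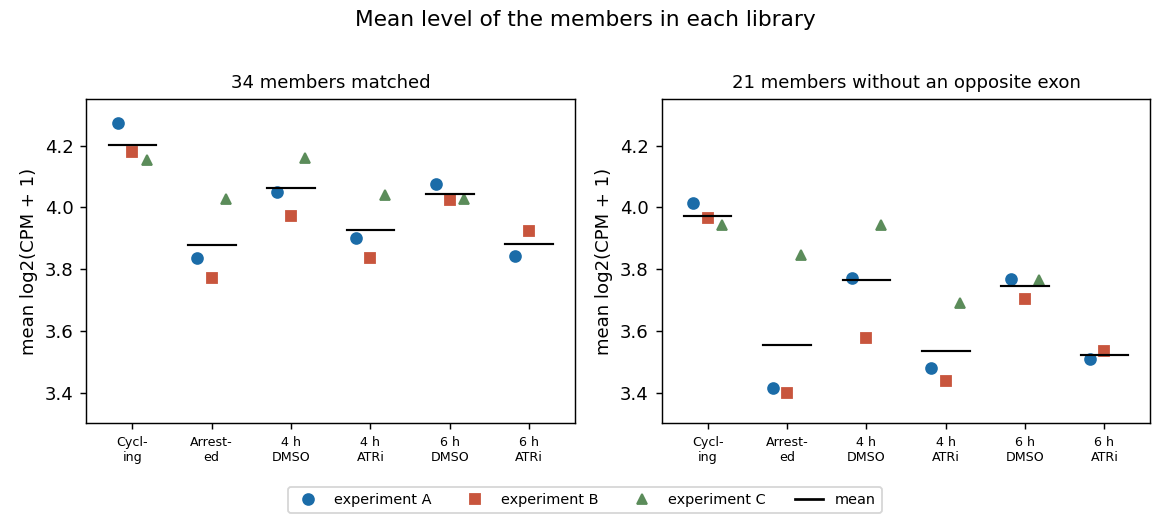
Mean of log2(CPM + 1) over the 34 matched members (left) and over the 21 without an exon overlapped on the opposite strand (right), 1 point per library by experiment and a line at the condition's mean; the axis does not start at 0. Cycling libraries (4.15 to 4.27, left) lie above arrested ones (3.77 to 4.03).

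With the inhibitor at 4 h of release, no member passed the test. A call was an adjusted p under 0.05 in edgeR's quasi-likelihood test, with Benjamini-Hochberg adjustment over all features tested, of which 0.311% were called in this comparison and 1.75% with the experiment as a block. DESeq2 also called 0 of 30 members, and 4 were lower at an unadjusted p under 0.05, as were 2.37% of all features. Of the 30 members, 22 had a log2 fold change below 0 with a median of -0.12, where all features had 50.9% below 0 and a median of -0.01. Among the 17 members with no opposite exon, 14 were below 0 with a median of -0.27. POLR1C, MYBBP1A and NOP2 (3 of 30) were lower in every 4h_ATRi library than in any 4h_DMSO library, as were 4.8% of all features. NOP14 and WDR74 (2 of 30) were higher in every 4h_ATRi library, as were 5.5% of all features. Without experiment B of 4h_DMSO the members' median was -0.20.

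At 6 h the same held: no member was called by edgeR or DESeq2, and 0.0074% of all features were called (0.533% with the block). At an unadjusted p under 0.05, 2 members and 2.15% of all features were lower. Of the 30 members 21 were below 0 with a median of -0.16, against 48.7% and 0.01 for all features. Of the 17 members with no opposite exon 13 were below 0, with a median of -0.33. DDX21, RRP1B, FBL and RRS1 (4 of 30, 13.3%) lay below every 6h_DMSO library in both 6h_ATRi libraries, as did 9.07% of all features. WDR43 (1 of 30) lay above them, as did 9.9% of all features. The inhibitor library was the lower of the pair in both experiments for 8 members and the higher for 6, where all features had 27.0% and 28%. The experiments differed: 19 of 30 members were lower in A, with a median difference of -0.29 in log2(CPM + 1), and 13 of 30 in B, with a median of 0.01. The mean of log2(CPM + 1) over the 34 matched members was lower with the inhibitor in both. It was 4.08 with DMSO and 3.84 with the inhibitor in A, and 4.02 and 3.92 in B.

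The inhibitor's effects at 6 h and 4 h were also compared directly. No member was called by edgeR or DESeq2, and neither was any of the features (0.0%, and 0.0444% with the block). NOP2 was the 1 member with an unadjusted p under 0.05, as were 2.97% of all features. The members' median difference was -0.14, and 0.02 without experiment C of 4h_ATRi.

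**Figure D2:**
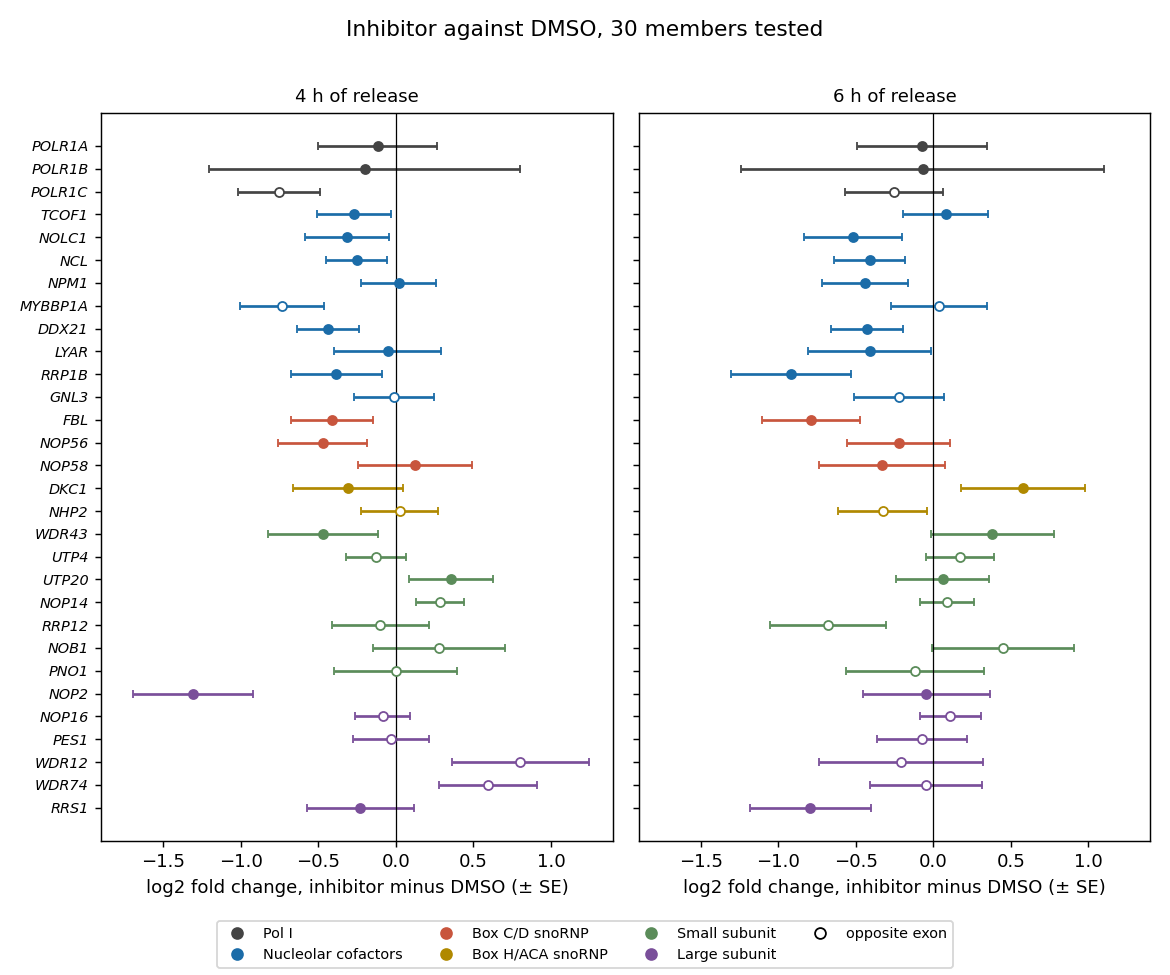
Log2 fold change of the inhibitor against DMSO for each of the 30 members tested at 4 h (left) and 6 h (right) of release, with bars of 1 SE, coloured by role; open points have an exon overlapped on the opposite strand. Of the 30, 22 lie below 0 at 4 h and 21 at 6 h, and none passed the test.

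After release from the arrest few members differed. From arrest to 4h_DMSO no member was called by edgeR or DESeq2, 5 were higher at an unadjusted p under 0.05 (4.76% of all features were), and 0.74% of all features were called. With the experiment as a block, 3 of 30 members rose and none fell, against 4.77% of features called. These were DDX21, MYBBP1A and NOP14. POLR1C, MYBBP1A, DDX21, RRP1B and NOP14 (5 of 30, 16.7%) were higher in every 4h_DMSO than in any arrested library, as were 7.19% of all features, and none was lower in every library, as 6.85% of all features were. The members' median was 0.12, with 11 of 30 below 0, and 0.03 without experiment C of 4h_DMSO.

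From arrest to 6h_DMSO, NOP14 rose and the other 29 members were not called, against 2.32% of features called and 7.71% with the block. DESeq2 likewise called 1. The members' median was 0.19, with 13 of 30 below 0. Leaving out experiment B of the arrested cells gave 0.10. Between 4h_DMSO and 6h_DMSO no member was called by edgeR or DESeq2, against 0.0814% of features (1.04% with the block), and 2 were lower at an unadjusted p under 0.05, as were 2.15% of all features. The median there was -0.04, and 0.05 without experiment A of 4h_DMSO.

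The members differed most between arrested and cycling cells, where arrested cells were the lower. From cycling to arrested cells no member was called by edgeR or DESeq2, against 1.03% of all features, and 6 were lower at an unadjusted p under 0.05, as were 4.93% of all features. With the block, NCL, DDX21 and NOLC1 fell (3 of 30) and none rose, against 5.64% of features called in either direction. Of the 30 members 24 were below 0, with a median of -0.32, against 51.4% and -0.01 for all features. Among the 17 with no opposite exon 16 were below 0, with a median of -0.39. In every arrested library 8 members (26.7%) lay below every cycling library, as did 8.62% of all features: POLR1C, NOLC1, NCL, MYBBP1A, DDX21, NOP58, NOP2 and PES1. No member lay above every cycling library in all arrested libraries, as 7.32% of all features did. In 12 members the arrested library was the lower of the pair in each of the 3 experiments, and in none was it the higher, where all features had 20.2% and 17.1%. By experiment the members' median difference in log2(CPM + 1) was -0.36 in A, -0.32 in B and -0.21 in C.

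**Figure D3:**
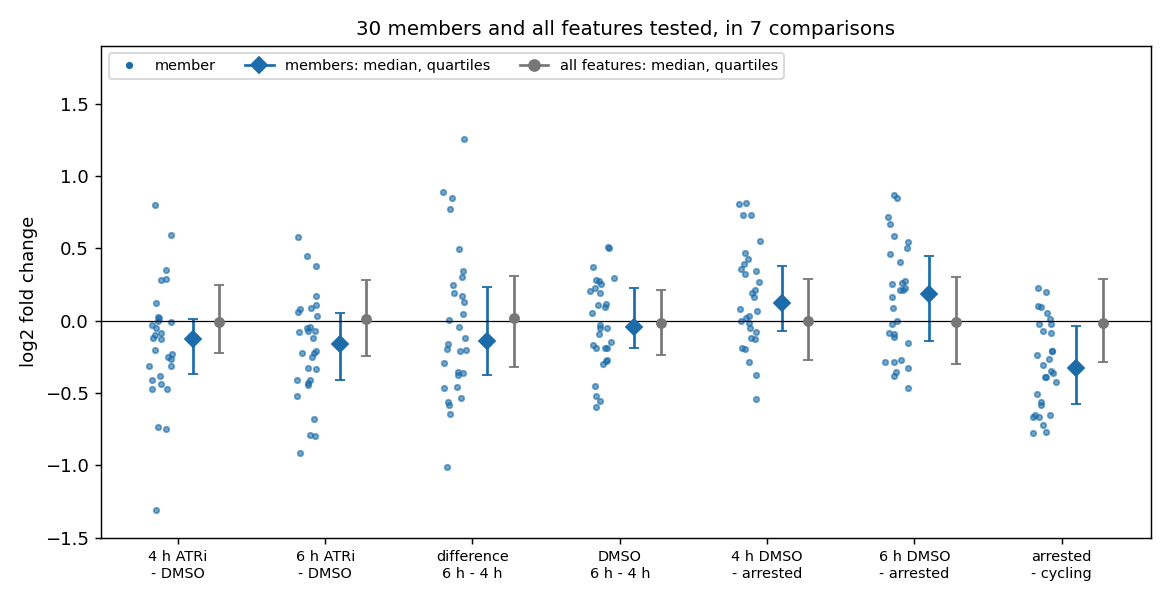
Log2 fold changes of the 30 members (points) in the 7 comparisons, with the members' median and quartiles (diamonds) and those of all features tested (circles). The members' median lies at -0.32 for arrested against cycling cells and at 0.12 and 0.19 for release.

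No RNA polymerase I subunit was called, and POLR1C, which is shared with RNA polymerase III, had the smallest unadjusted p among them with the inhibitor at 4 h. POLR1C was at 21.5, 22.3 and 20.2 CPM in experiments A, B and C of 4h_DMSO, at 13.7, 10.9 and 13.3 in 4h_ATRi, at 11.3, 12.9 and 12.2 in arrested cells and at 15.5, 13.9 and 18.4 in cycling cells. At 6 h it was at 12.6, 18.6 and 11 CPM in DMSO and at 10.1 and 13.5 (A and B) with the inhibitor. All 3 libraries of 4h_DMSO were above every other library of the series. The log2 fold change was -0.75 ± 0.27 for the inhibitor at 4 h (edgeR, adjusted p = 0.553), 0.81 ± 0.27 from arrest to 4h_DMSO (adjusted p = 0.212) and -0.60 ± 0.26 from 4h_DMSO to 6h_DMSO (adjusted p = 0.911), none of which passed.

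Of the 4 features opposite POLR1C, the antisense feature ENSG00000271754 held 35.1 to 87.3 CPM, above POLR1C in 17 libraries. It was at 87.3, 49.5 and 59.6 CPM in 4h_DMSO and at 53.3, 36.9 and 35.1 in 4h_ATRi, so it too was lower with the inhibitor in each experiment. The exportin gene XPO5 lay above POLR1C in 16 libraries, YIPF3 in 0, and LRRC73 was not tested. POLR1A, the largest catalytic subunit, ran from 6.94 to 22.2 CPM. POLR1B, the other large subunit, ran from 0 to 8.21 CPM and POLR1E from 0.466 to 3.56, which are few counts at this depth. Whether the strand of the counts lowered these values was not tested.

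Among nucleolar cofactors, 8 of 9 had a log2 fold change below 0 with the inhibitor at 4 h (median -0.27), 7 of 9 at 6 h (median -0.41) and 9 of 9 from cycling to arrested cells (median -0.42). DDX21, a DEAD-box RNA helicase that acts in ribosomal RNA transcription and processing, was at 54.5, 51.8 and 43.9 CPM in cycling cells and at 29.1, 34.8 and 31.5 in arrested cells. It was at 54.9, 40.6 and 63.5 CPM in 4h_DMSO, at 42.4, 30.1 and 45.1 in 4h_ATRi, at 50.3, 42.7 and 46.6 in 6h_DMSO and at 34.7 and 34.5 in 6h_ATRi. Arrested libraries were below all cycling and all DMSO-treated released libraries, and the inhibitor library was below its DMSO partner in each of 5 pairs.

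DDX21 has no exon overlapped on the opposite strand. Its change from cycling to arrested cells was -0.65 ± 0.20 in log2 (edgeR, adjusted p = 0.171) and passed with the block (adjusted p = 0.0198). From arrest to 4h_DMSO it was 0.73 ± 0.20 (adjusted p = 0.0989, with the block 0.00767, without experiment B of 4h_DMSO 0.91 with adjusted p = 0.0433). From arrest to 6h_DMSO the change was 0.55 ± 0.21 (adjusted p = 0.214). With the inhibitor it was -0.44 ± 0.20 at 4 h (adjusted p = 0.834) and -0.43 ± 0.23 at 6 h (adjusted p = 1.0), neither a call.

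NCL, or nucleolin, an abundant RNA-binding protein of the nucleolus, was at 216, 238 and 202 CPM in cycling cells and at 176, 128 and 186 in arrested cells. At 4 h it was at 181, 145 and 193 CPM in DMSO and at 149, 101 and 186 with the inhibitor. At 6 h it was at 186, 121 and 156 CPM in DMSO and at 121 and 110.5 with the inhibitor. Every arrested library was below every cycling library, while the inhibitor and DMSO libraries overlapped at both times. The change from cycling to arrested cells was -0.42 ± 0.20 in log2 (adjusted p = 0.477, edgeR), and -0.45 ± 0.12 with the block (adjusted p = 0.0113). At 6 h the inhibitor gave -0.41 ± 0.23 (adjusted p = 1.0).

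NOLC1, the chaperone of snoRNPs also called Nopp140, was at 39.9, 47.3 and 32.8 CPM in cycling cells and at 16.0, 27.3 and 26.4 in arrested cells. Released cells had 25.5, 31.7 and 30.5 CPM in 4h_DMSO, 21.4, 15.1 and 34.2 in 4h_ATRi, 28, 24.1 and 32.9 in 6h_DMSO and 15.1 and 24.3 in 6h_ATRi. The cycling and arrested libraries did not overlap, and the released ones lay across the gap. Its log2 fold change from cycling to arrested cells was -0.77 ± 0.27 (edgeR, adjusted p = 0.254, with the block 0.0148).

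MYBBP1A, a nucleolar protein that represses ribosomal RNA synthesis and can activate p53, was at 22.2, 35.4 and 21.3 CPM in cycling cells and at 14.2, 17.4 and 17.8 in arrested cells. It was at 25.5, 37.7 and 24.1 CPM in 4h_DMSO, at 15.5, 15.1 and 21.8 in 4h_ATRi, at 22.4, 13.6 and 23.6 in 6h_DMSO and at 20.2 and 20.5 in 6h_ATRi. The 4h_DMSO libraries lay above all arrested and all 4h_ATRi libraries.

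The change of MYBBP1A from arrest to 4h_DMSO was 0.81 ± 0.27 in log2 (edgeR, adjusted p = 0.219), which passed with the block (adjusted p = 0.0365). The inhibitor at 4 h gave -0.73 ± 0.27 (adjusted p = 0.604, with the block 0.121), and at 6 h 0.04 ± 0.31. From cycling to arrested cells it was -0.66 ± 0.28 (adjusted p = 0.391) and from 4h_DMSO to 6h_DMSO -0.55 ± 0.27 (adjusted p = 0.998). The difference between the inhibitor effects was 0.77 ± 0.41 (adjusted p = 1.0). SPNS2, a lipid transporter gene opposite 2.2% of the exon bases of MYBBP1A, was at 35.4, 28.2 and 28.1 CPM in 4h_DMSO and at 22.8, 26.5 and 17.6 in 4h_ATRi, with a log2 fold change of -0.46 ± 0.24 (adjusted p = 0.944).

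RRP1B, a partner of the large-subunit precursor and of protein phosphatase 1, was at 5.93, 12.4 and 9.65 CPM in arrested cells, at 14.0, 15.4 and 17.7 in 4h_DMSO and at 9.58, 14.6 and 11.9 in 4h_ATRi. It was at 10.25, 10.04 and 12.60 CPM in 6h_DMSO and at 5.60 and 5.93 in 6h_ATRi, and at 12.9, 11.5 and 11.6 in cycling cells. Both 6h_ATRi libraries lay below every 6h_DMSO library. The inhibitor gave -0.92 ± 0.39 in log2 at 6 h (edgeR, adjusted p = 1.0), and -0.38 ± 0.30 at 4 h (adjusted p = 1.0). From 4h_DMSO to 6h_DMSO it was -0.52 ± 0.30 (adjusted p = 1.0).

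The other cofactors had no call. NPM1, or nucleophosmin, which shuttles ribosomal particles, ran from 59.8 to 136 CPM, and TCOF1, the treacle protein that recruits RNA polymerase I factors, from 21.4 to 51.3. GNL3, the nucleolar GTPase nucleostemin, ran from 13.4 to 26.2 CPM and LYAR, a nucleolar zinc finger protein, from 5.47 to 17. All 4 were lower on average in arrested than in cycling cells, from -0.21 ± 0.24 for TCOF1 to -0.67 ± 0.36 for LYAR.

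**Figure D4:**
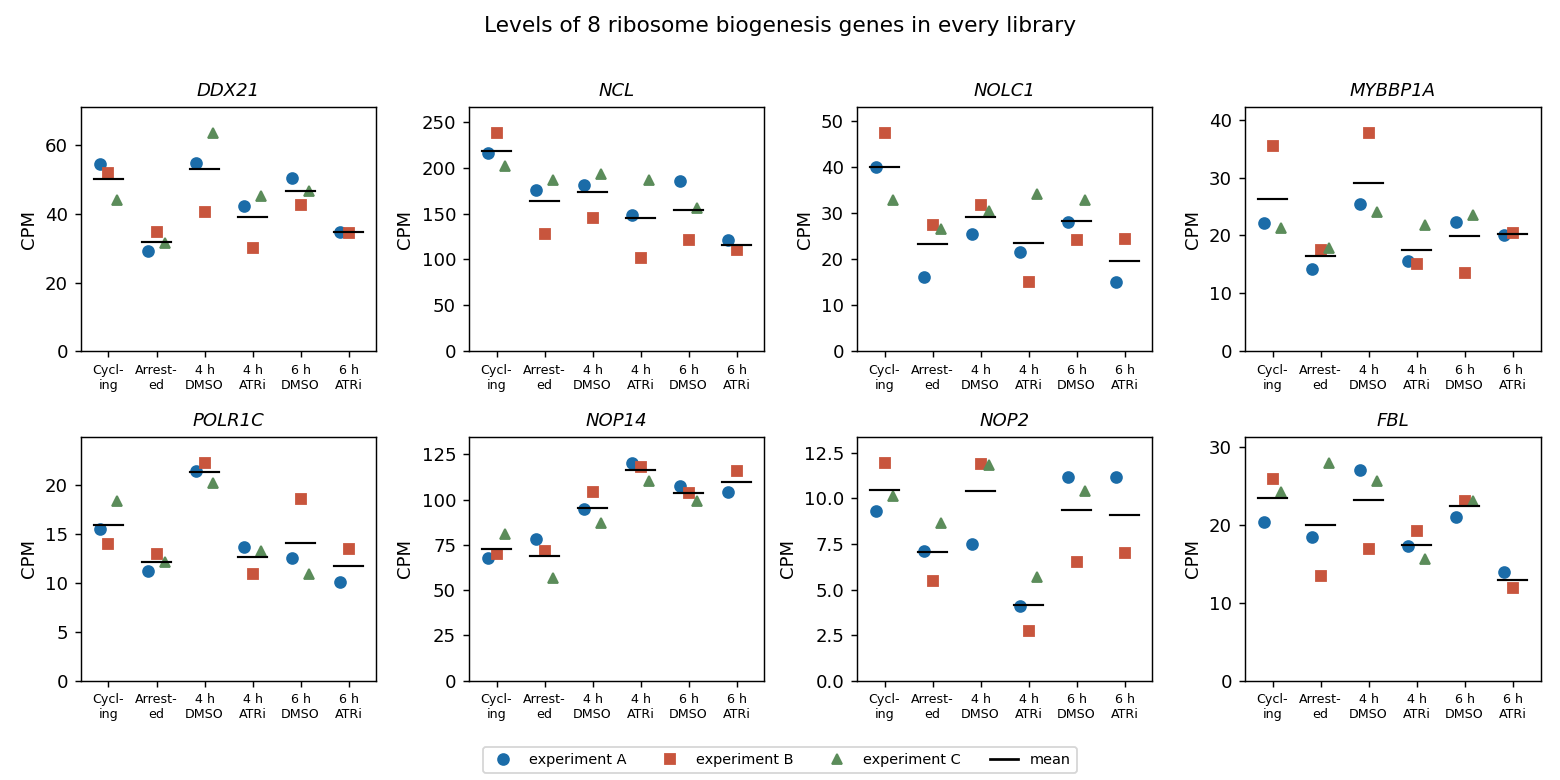
CPM of 8 members in each of the 17 libraries (points by experiment, lines at the condition's mean), each panel with its own axis from 0. DDX21, NCL and NOLC1 are lower in all arrested than in all cycling libraries, and POLR1C, MYBBP1A and NOP2 lower in all 4h_ATRi than in all 4h_DMSO libraries.

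Box C/D snoRNP proteins had no call in any comparison. FBL, or fibrillarin, the methyltransferase of the particle, was at 21, 23.1 and 23.0 CPM in 6h_DMSO and at 14.0 and 11.9 in 6h_ATRi. At 4 h it was at 27.0, 16.8 and 25.6 CPM in DMSO and at 17.3, 19.2 and 15.7 with the inhibitor, and it was at 18.4, 13.4 and 27.9 in arrested and 20.4, 25.9 and 24.1 in cycling cells. The 6 h conditions did not overlap and those at 4 h did. Its log2 fold change with the inhibitor was -0.79 ± 0.32 at 6 h (edgeR, adjusted p = 1.0) and -0.41 ± 0.26 at 4 h (adjusted p = 1.0).

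The scaffold protein NOP56 ran from 10.04 to 23.37 CPM and gave -0.47 ± 0.29 at 4 h. Its paralogue NOP58 ran from 5.47 to 19.6 CPM, and arrested libraries (6.53, 5.47 and 13.2) lay below cycling ones (15.1, 14.9 and 13.5), with a log2 fold change of -0.78 ± 0.37 (edgeR, adjusted p = 0.494). RRP9, a protein of the U3 snoRNP, was at 0 to 6.06 CPM and was not tested.

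Of the box H/ACA snoRNP proteins 2 of 4 could be tested, and neither was called. DKC1, or dyskerin, the pseudouridine synthase, was at 12.6, 7.53 and 3.84 CPM in 6h_DMSO, at 13.4 and 10.8 in 6h_ATRi, at 9.98, 12.4 and 10.8 in 4h_DMSO and at 11.4, 9.12 and 6.17 in 4h_ATRi. Cycling cells had 11.5, 12 and 9.66 CPM and arrested cells 8.90, 11.4 and 11.2. The lowest value, in experiment C of 6h_DMSO, has no 6h_ATRi library beside it. The difference between the inhibitor effects was 0.89 ± 0.53 in log2 (edgeR, adjusted p = 1.0). NHP2, a core protein of the particle, ran from 19.4 to 35.6 CPM, and RMND5B, opposite 27.4% of its exon bases, held 334 to 599 CPM. NOP10 was at 0 to 2.90 CPM and GAR1 at 0.456 to 3.86, both core proteins and neither tested.

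Among small subunit factors NOP14 was the member that was called. NOP14, a component of the small subunit processome, was at 78.3, 71.6 and 56.9 CPM in arrested cells, at 94.8, 104 and 87.1 in 4h_DMSO and at 108, 103 and 99.2 in 6h_DMSO. It was at 120.4, 118.2 and 110.1 CPM in 4h_ATRi, at 104 and 116 in 6h_ATRi and at 67.8, 69.7 and 81.1 in cycling cells. Every released library lay above every arrested and cycling library, and the inhibitor library above its DMSO partner in each experiment at 4 h.

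NOP14 rose from arrest to 6h_DMSO by 0.59 ± 0.16 in log2 (edgeR, adjusted p = 0.0477, with the block 0.00147). Leaving out any 1 of the 6 libraries of this comparison gave a log2 fold change of 0.47 to 0.71 and ended the call. Without arrested A, B or C the adjusted p was 0.0501, 0.061 or 0.274, and without 6h_DMSO A, B or C it was 0.143, 0.113 or 0.0982. With no filter on low counts it was 0.171, and with the compared groups alone 0.0657. The change to 4h_DMSO was 0.47 ± 0.16 (adjusted p = 0.231), and passed with the block (adjusted p = 0.028). The inhibitor at 4 h gave 0.29 ± 0.16 (adjusted p = 0.977).

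NOP14-AS1, opposite 17.1% of the exon bases of NOP14, held 202 to 426 CPM and exceeded NOP14 in 17 libraries. It was at 382, 253 and 381 CPM in arrested cells, at 301, 232 and 292 in 6h_DMSO, at 394, 271 and 308 in 4h_DMSO and at 296, 206 and 222 in 4h_ATRi. In each experiment it moved the other way from NOP14, being lower in 6h_DMSO than in arrested cells and lower with the inhibitor at 4 h. Its log2 fold change was -0.42 ± 0.18 for the inhibitor at 4 h (edgeR, adjusted p = 0.796), a fall that passed with the block (adjusted p = 0.00684), and -0.30 ± 0.18 from arrest to 6h_DMSO (adjusted p = 0.582). Which of the 2 entries holds the NOP14 messenger RNA was not tested. At VIM and FTH1 too, the opposite feature held more counts in 17 libraries, so the rise is that of the NOP14 entry.

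RRP12, which takes part in export and maturation of the subunits, was at 16.3, 22.6 and 25.8 CPM in 6h_DMSO and at 7.84 and 18.9 in 6h_ATRi. At 4 h it was at 17, 23.8 and 21.2 CPM in DMSO and at 15.5, 21.4 and 20.9 with the inhibitor, and it was at 22.0, 20.9 and 17.8 in arrested and 24.4, 22.9 and 9.18 in cycling cells. The low 6h_ATRi value was in experiment A, and the conditions overlapped. The inhibitor gave -0.68 ± 0.38 at 6 h (edgeR, adjusted p = 1.0), and -0.22 without experiment A of 6h_ATRi. Opposite it, ENSG00000231970 was at 63.9, 51.7 and 58.6 CPM in 6h_DMSO and at 35.8 and 31.8 in 6h_ATRi, a log2 fold change of -0.78 ± 0.25 (adjusted p = 0.743, with the block 0.0571).

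The remaining small subunit factors had no call. WDR43 and UTP4, early processome proteins, ran from 5.45 to 22.0 and from 37.8 to 63.0 CPM, and UTP20, a very large scaffold of the processome, from 13.2 to 31.0. NOB1, the nuclease that makes the final cut in the small subunit RNA, ran from 3.56 to 12.4 CPM and its partner PNO1 from 3.56 to 12. At 6 h 2 of the 7 small subunit factors were below 0 with the inhibitor, with a median of 0.09, and at 4 h 4 of 7, with a median near 0.

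Large subunit factors included NOP2, which had the greatest difference between inhibitor and DMSO among the 30 members tested. NOP2, the methyltransferase also known as p120 that acts on the large subunit RNA, was at 7.49, 11.9 and 11.8 CPM in 4h_DMSO and at 4.10, 2.74 and 5.70 in 4h_ATRi. At 6 h it was at 11.2, 6.53 and 10.4 CPM in DMSO and at 11.2 and 7.01 with the inhibitor, and it was at 7.12, 5.47 and 8.64 in arrested and 9.31, 12 and 10.1 in cycling cells. All 3 libraries of 4h_ATRi were below every other library but 1, as arrested B (5.47) lay below experiment C of 4h_ATRi (5.70).

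NOP2 has no opposite exon, and its counts ran from 6 to 24 per library. The inhibitor gave -1.31 ± 0.39 in log2 at 4 h (edgeR, adjusted p = 0.296, with the block 0.0628), which did not pass, and -0.05 ± 0.41 at 6 h. Without 1 library at a time the value at 4 h ran from -1.57 to -1.07. The difference between the inhibitor effects was 1.26 ± 0.56 (adjusted p = 1.0).

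RRS1, which brings the 5S ribonucleoprotein to the large subunit precursor, was at 17.2, 23.6 and 14.8 CPM in 6h_DMSO and at 8.96 and 12.4 in 6h_ATRi. It was at 7.12, 12.4 and 10.7 CPM in arrested cells, at 7.99, 11.9 and 19.2 in 4h_DMSO, at 8.66, 11.4 and 13.3 in 4h_ATRi and at 17.7, 9.46 and 12.6 in cycling cells. The 6h_DMSO libraries lay above all arrested and all 6h_ATRi libraries. The inhibitor gave -0.79 ± 0.39 at 6 h (edgeR, adjusted p = 1.0), and release to 6h_DMSO 0.87 ± 0.34 (adjusted p = 0.253).

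WDR74, a partner of the remodelling factor NVL, was at 12.5, 8.42 and 11.8 CPM in 4h_DMSO and at 14.1, 18.2 and 17.1 in 4h_ATRi, higher with the inhibitor in each experiment and without overlap. Its other libraries were at 8.87, 8.97 and 10.1 CPM in cycling cells, 10.7, 13.4 and 8.64 in arrested cells, 10.7, 20.1 and 8.22 in 6h_DMSO and 11.8 and 13.5 in 6h_ATRi. The inhibitor at 4 h gave 0.59 ± 0.32 (edgeR, adjusted p = 0.968). STX5-DT, opposite 12.2% of its exon bases, went the other way, at 111, 71.3 and 111 CPM in 4h_DMSO and 81.6, 57.5 and 71.7 in 4h_ATRi, with -0.48 ± 0.23 (adjusted p = 0.862, with the block 0.0585).

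PES1 and WDR12, which with BOP1 form the PeBoW complex of large subunit assembly, ran from 14.4 to 32.8 and from 2.99 to 11.9 CPM. PES1 was lower in every arrested library (19.0, 20.9 and 15.2) than in any cycling library (32.8, 25.9 and 23.7), with a log2 fold change of -0.58 ± 0.24 (edgeR, adjusted p = 0.402). WDR12 gave 0.80 ± 0.44 with the inhibitor at 4 h (adjusted p = 0.977). NOP16, a late nucleolar factor, ran from 151 to 241 CPM with -0.08 ± 0.18 and 0.11 ± 0.20 at 4 h and 6 h.

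Most features opposite the members were also lower with the inhibitor at 4 h, though none passed without the block. Of 18 such features 15 were tested, and 14 of the 15 had a log2 fold change below 0 with the inhibitor at 4 h, with a median of -0.45. Of all features 50.9% were below 0 there, with a median of -0.01. None was called by edgeR, against 0.311% of all features, and 6 were lower at an unadjusted p under 0.05, as were 2.37% of all features. With the block NOP14-AS1, ENSG00000271754 (opposite POLR1C) and ARL10 (opposite NOP16) fell, with adjusted p of 0.00684, 0.0184 and 0.045. These were 3 of 15, against 1.75% of all features called with the block. At 6 h 10 of 15 were below 0, with a median of -0.08, against 48.7% and 0.01 for all features. From cycling to arrested cells 12 of 15 were below 0, against 51.4% of all features. ARL10 changed by -0.845 in log2 (edgeR, adjusted p = 0.0301), the 1 of 15 called without the block, against 1.03% of all features. In that comparison ENSG00000273398 (opposite PNO1), STX5-DT and GLT8D1 (opposite GNL3) also fell with the block, with adjusted p of 3.06e-05, 0.00187 and 0.0149. With ARL10 these were 4 of 15 with the block, against 5.64% of all features called. After release, with the block, ENSG00000273398 rose by 0.55 in log2 to 4h_DMSO (adjusted p = 0.016) and by 0.62 to 6h_DMSO (adjusted p = 0.00296). ARL10 rose by 0.50 to 6h_DMSO (adjusted p = 0.0115), and NQO1-DT, opposite NOB1, fell by 0.35 (adjusted p = 0.0317). So 1 of 15 rose to 4h_DMSO with the block, against 4.77% of all features called. To 6h_DMSO 2 of 15 rose and 1 fell, against 7.71%. ENSG00000273398 was at 98.9, 71.7 and 102 CPM in cycling cells, at 57.5, 39.3 and 57.9 in arrested cells and at 84.4, 59.0 and 83.7 in 4h_DMSO.

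**Figure D5:**
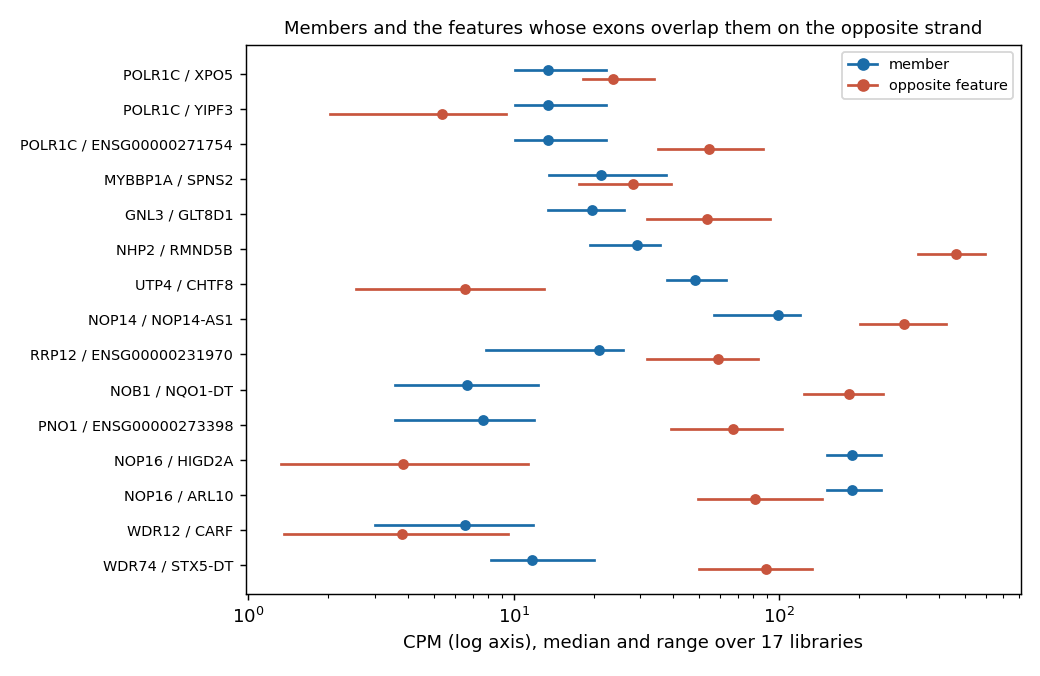
CPM on a logarithmic axis of members and of the 15 tested features that overlap their exons on the opposite strand, as the median and the range over 17 libraries. RMND5B (334 to 599 CPM), opposite NHP2, and NOP14-AS1 (202 to 426 CPM), opposite NOP14, lie above the members in every library.

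A wider list of 131 other ribosome biogenesis genes gave 107 that could be tested. With the inhibitor none was called at 4 h or 6 h by edgeR, 68 and 69 of 107 had a log2 fold change below 0, and the medians were -0.13 and -0.11. Of all features 0.311% and 0.0074% were called there, 50.9% and 48.7% were below 0, and the medians were -0.01 and 0.01. From arrest to 4h_DMSO, DHX37, a helicase that releases the U3 snoRNA, rose by 1.62 ± 0.39 in log2 (edgeR, adjusted p = 0.0436). TEX10, a large subunit factor of the rixosome complex, fell by 0.78 in log2 to 4h_DMSO (adjusted p = 0.0492) and by 0.71 to 6h_DMSO (adjusted p = 0.0438). So 1 of 107 rose and 1 fell to 4h_DMSO, against 0.74% of all features called, and 1 fell to 6h_DMSO, against 2.32%. With the block EXOSC9, an exosome subunit with an exon opposite the cyclin gene CCNA2, rose with the inhibitor at 4 h by 0.64 ± 0.11 (adjusted p = 1.88e-05). UTP23, opposite RAD21 and EIF3H, rose likewise by 0.43 ± 0.10 (adjusted p = 0.00364). These were 2 of 107, against 1.75% of all features called with the block. Counts on EXOSC9 and UTP23 may belong to the genes opposite them, which was not tested. EXOSC9 also rose with the block in DMSO, from arrest to 4h_DMSO by 0.54 ± 0.11 (adjusted p = 0.00048), to 6h_DMSO by 1.07 ± 0.11 (adjusted p = 8.58e-13) and between these times by 0.53 ± 0.11 (adjusted p = 0.0011). In the edgeR fit of all 17 libraries without the block none of these EXOSC9 changes passed. DESeq2, also without the block, called the rise from arrest to 6h_DMSO (1.08 in log2, adjusted p = 0.00568). Without experiment B the rises to 4h_DMSO and 6h_DMSO were 0.65 and 1.09 in log2 (edgeR). UTP23 rose from arrest to 6h_DMSO with the block by 0.29 ± 0.10 (adjusted p = 0.0497). With the block 2 of 107 rose and 1 fell from arrest to 4h_DMSO and likewise to 6h_DMSO, against 4.77% and 7.71% of all features called. Between 4h_DMSO and 6h_DMSO 1 of 107 rose, against 1.04%. From cycling to arrested cells 64 of 107 were below 0, with a median of -0.09, against 51.4% and -0.01 for all features. With the block DHX37 fell by 1.41 in log2 in that comparison (adjusted p = 0.0143) and EXOSC9 fell by 0.51 (adjusted p = 0.00093). TSR1, a small subunit GTPase-like factor opposite SRR and SGSM2, rose by 0.60 (adjusted p = 4.46e-05). So 2 of 107 fell and 1 rose with the block, against 5.64% of all features called. Counts on TSR1 too may belong to the genes opposite it.

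The authors' deposited table of DESeq2 results gave an adjusted p under 0.05 for 1 member from arrest to 4h_DMSO (DDX21, 0.0478) and for 1 from arrest to 6h_DMSO (NOP14, 0.00557). In each of these comparisons 18 members carry an adjusted p there. The share of all features under 0.05 in that table was not computed, so these counts have no background beside them. It gave none with the inhibitor at 4 h or 6 h, where 25 and 11 members carry an adjusted p in the authors' deposited table.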

How the data were processed

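Total RNA was taken up with Trizol and libraries made with a stranded kit for mRNA, per the labels. What the authors deposited are whole-number read counts per gene for 17 libraries. The submitters' processing notes list TopHat, HTSeq, DESeq2 and the build GRCh37, and the strand setting of the counting is not given in the sources used here. The authors deposited a second table with log2 fold changes and adjusted p-values. Of 60252 IDs, 55528 were matched to symbols. CPM here are counts over the library size times its TMM factor. A GENCODE annotation of GRCh38 gave only names and opposite-strand overlaps. RefSeq promoter windows matched 27 members.

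Counts were fitted once over 17 libraries with edgeR 4.0.16 in R 4.3.3 (TMM, filterByExpr at 10 counts per library and 15 in total, robust glmQLFit, glmQLFTest), with a mean per condition, 11 residual degrees of freedom and a call at an adjusted p under 0.05. Fold changes are value ± SE. The fit was tested on simulated data. DESeq2 1.42.0, RLE factors, no filter, the compared groups alone, each library left out and experiment B left out were the alternatives, as was the experiment letter as a block (9 residual degrees of freedom). The letters come from the count columns and were read as the repeats that the design text mentions. Deviations from condition means correlated across features at 0.081 to 0.536 between libraries of 1 letter and at -0.465 to 0.265 between letters. Such deviations sum to 0 within a condition, which pushes values between letters below 0, so these ranges cannot decide whether the letters are matched repeats. Experiment C of cycling cells gave 0.213 with A of 4h_DMSO and 0.09 with C. The block lowered the coefficient of variation from 0.23 to 0.119, and the blocked value is given where it changes a call. For 6h_ATRi, experiment C was not used here.

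The members and all lists were chosen with earlier results of these data known. All 35 members are named. Values in every library are given for members called in any comparison with or without the block, the 6 with the smallest p in each inhibitor comparison and the 3 with the smallest p in each other comparison, with the features opposite them. Called genes of the wider lists are named. Counts carry no molecular identifiers, so depth limits cover counting only.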

Additional observations from a re-analysis of the deposited data

How the results depend on the processing

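Counts of members called were 0 in 6 of 7 comparisons and stayed so with DESeq2 and with RLE factors. With the replicate block they became 3 from arrest to 4h_DMSO and 3 from cycling to arrested cells. The block changed no other count of members, and raised the features called among all tested from 42 to 237 and from 1 to 72 for the inhibitor at 4 h and 6 h, from 0 to 6 for their difference, from 11 to 141 between 4h_DMSO and 6h_DMSO, from 100 to 644 and from 314 to 1041 from arrest to 4h_DMSO and 6h_DMSO, and from 139 to 762 from cycling to arrested cells. Without experiment B, 1 member was called from arrest to 4h_DMSO. From arrest to 6h_DMSO the count went from 1 to 0 with no filter and with only the groups compared. With 1 library left out at a time the counts ran from 0 to 1 from arrest to 4h_DMSO and were 0 from arrest to 6h_DMSO.

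The median log2 fold change of the members moved by as much as its spread between experiments, or more, under the settings given next. For the difference of inhibitor effects it was -0.089 with the block and -0.238 without experiment B. Without experiment B it was 0.186 from arrest to 4h_DMSO and 0.076 from arrest to 6h_DMSO, and with only the groups compared 0.169 from arrest to 4h_DMSO. Over the members with no exon overlapped on the opposite strand it was -0.267 for the inhibitor at 4 h and -0.148 from 4h_DMSO to 6h_DMSO. With 1 library left out it ran from -0.203 to -0.128 for the inhibitor at 4 h, from -0.23 to 0.023 for their difference, from -0.087 to 0.049 from 4h_DMSO to 6h_DMSO, from 0.034 to 0.189 and from 0.099 to 0.22 from arrest to 4h_DMSO and 6h_DMSO, and from -0.357 to -0.24 from cycling to arrested cells. The cause was not tested. For the inhibitor at 6 h it ran from -0.235 to -0.125, less than its spread of 0.212 between experiments. In the fits that leave out a 6h_ATRi library or experiment B, the lone 6h_ATRi library is assumed to vary like the others. No member changed sign under any alternative in the comparison for which the rule names it. At this depth members under about 10 CPM have too few counts for small changes to be seen.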

Other observations

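The ribosomal protein genes, whose products the members assemble into subunits, were measured in the same fits. Of 79 such genes 75 were tested, and edgeR called none in any of the 7 comparisons, against 0.0% to 2.32% of all features. From arrest to 4h_DMSO 64 of 75 had a log2 fold change above 0, with a median of 0.13, where 49.8% of all features were below 0. At an unadjusted p under 0.05, 5 of 75 were higher, as were 4.76% of all features. With the experiment as a block RPS2 rose by 0.40 ± 0.11 in log2 (edgeR, adjusted p = 0.0146) and RPS3 by 0.48 ± 0.15 (adjusted p = 0.0458). These were 2 of 75, against 4.77% of all features called. With the inhibitor 49 of 75 were below 0 at 4 h (median -0.03) and 60 of 75 at 6 h (median -0.09). Of all features 50.9% were below 0 at 4 h and 48.7% at 6 h. From 4h_DMSO to 6h_DMSO 59 of 75 were below 0, with a median of -0.08, against 52.0% and -0.015 for all features. Their summed level was 5520 to 5770 CPM in the 6h_ATRi libraries and 5640 to 6660 in 6h_DMSO, so the ranges overlapped. Many of these genes have pseudogene copies, so their counts are uncertain as to the copy. The limit set by the strand of the counts holds for these genes too.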
